A study of Mus musculus with 2 samples.

Results

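The E2F and retinoblastoma family genes described here were 10 of the 18220 genes in a table of B16 mouse melanoma cells. They were chosen by symbol. E2f1, E2f2 and E2f3 were taken as the activators, E2f4, E2f6, E2f7 and E2f8 as the repressors, and Rb1, Rbl1 and Rbl2 as the pocket proteins. All 10 were listed and all 10 passed the minimum of a mean of 1 CPM (counts per 1000000). RNA depleted of ribosomal RNA was sequenced from a control-treated group and from a group given LY500307 (erteberel, an agonist selective for estrogen receptor beta), 1 library each. The sources used here give no genotype, dose, time or number of cultures. The comparison asks how gene activity in the melanoma cells differs once the agonist is present.

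E2F proteins are transcription factors that control entry into S phase. The activators switch on genes of DNA synthesis once cyclin-dependent kinases have phosphorylated the retinoblastoma protein and its relatives, which otherwise bind E2Fs through their pocket domain and recruit repressors. The repressors turn the same genes down, some together with pocket proteins and some without them. Several family genes are themselves E2F targets, so the family feeds back on its own transcription. In melanoma the pathway is known for losing its upstream brake, the kinase inhibitor encoded by Cdkn2a. That symbol was not listed among the 18220 genes, for a reason not examined here.

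The control library held 16704950 reads and the LY500307 library 14698853. Each group had a single library, so there is no replicate check and no test. Each interval of a level, ratio or share of reads is an exact 95% interval (Clopper-Pearson for a ratio or share, Poisson for a level) that covers counting error only, and reads of PCR products are not independent molecules. Folds are log2 of (LY500307 + 1) over (control + 1) in CPM, a scale on which low genes differ by less than their reads do, and 12243 genes reached the minimum. All 6 melanocyte markers examined were measured, the lowest, Mitf, at 320.8 CPM in control cells and 297.7 in treated cells. Of 12 markers of leukocytes, fibroblasts and endothelium, 4 reached 1 CPM, between 1.14 and 5.88 CPM in either library.

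Most of the E2F genes chosen were lower in treated cells, as was Rbl1 among the pocket proteins. All 7 E2F members had a negative log2 fold, from -0.61 to -0.06, of which that of E2f6 had an interval that includes 0, while Rb1 and Rbl2 had positive ones. The lowest were E2f7 and E2f8, the atypical repressors. Intervals lay below 0 for 7 of the 10 members, where 19.2% of all measured genes had such an interval, and above 0 for 0 of the 10, against 17.2%. A log2 fold of at least 0.32 in size (a 5 to 4 ratio) was reached by 2 members on the lower side (background 6.59%) and by 0 on the higher side (8.32%). None of the 10 reached 2-fold, which 0.123% of genes reached on the lower and 0.253% on the higher side. The median of the members was -0.24 and that of all measured genes -0.01. In RNA of whole cultures, fewer cells in a cell cycle phase and less RNA per cell cannot be told apart.

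**Figure D1:**
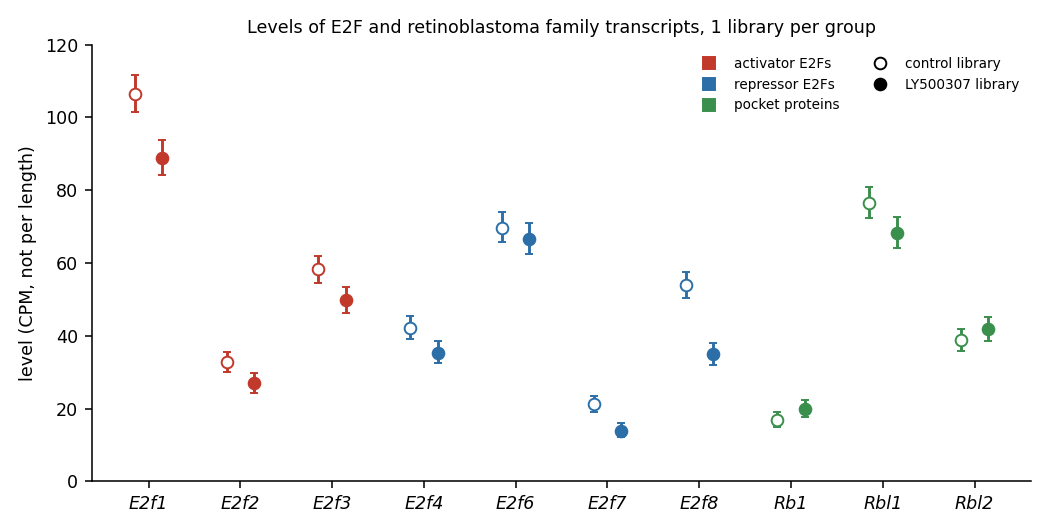
Level in CPM (y axis, not divided by length) of each member (x axis) in the control (open circle) and LY500307 (filled circle) libraries, with exact 95% Poisson intervals as bars. The pairs of E2f7 and E2f8 lie furthest apart in proportion, and Rb1 and Rbl2 are the members with the filled circle above the open one.

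The activators E2f1, E2f2 and E2f3 were lower by similar amounts. E2f1, the best-known driver of S phase genes, was at 106.5 CPM in control cells (interval 101.6 to 111.6) and 88.9 in treated cells (84.2 to 93.9). Its log2 fold was -0.26, and the ratio of reads was 0.835 (0.777 to 0.897). E2f2, an activator that acts alongside E2f1 in proliferating cells, was at 32.7 and 26.9 CPM, on 543 and 398 reads. E2f3, an activator long linked to proliferation, was at 58.2 and 49.7 CPM. The log2 folds of E2f2 and E2f3 were -0.27 and -0.22, so the 3 activators lay within a narrow range. Summed, they went from 197.4 to 165.5 CPM, a log2 ratio of -0.25 (-0.33 to -0.18).

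The repressors were spread more widely. E2f8, which encodes an E2F that binds DNA without a dimer partner and represses E2F targets, was at 53.8 CPM in control cells (50.3 to 57.5) and 34.9 in treated cells (31.9 to 38.0). E2f7, which encodes the other such factor, was at 21.2 and 13.9 CPM, on 352 and 206 reads. The interval of the log2 ratio lay below 0 for both genes, as it did for 19.2% of all measured genes. The log2 fold was -0.61 for E2f8, with a ratio of reads of 0.648 (0.580 to 0.723), and -0.57 for E2f7, with a ratio of 0.656 (0.550 to 0.781). A log2 fold at or below that of E2f8 was found in 1.17% of all measured genes and in 0.218% of the 4578 genes with a mean level within 2-fold of its own. For E2f7 these shares were 1.47%, and 1.01% of 3463 genes.

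The remaining repressors were closer to the control. E2f4, which acts mainly as a repressor with pocket proteins in resting cells, was at 42.2 and 35.3 CPM, a log2 fold of -0.25 (interval of the ratio -0.42 to -0.09). E2f6, which lacks a pocket-binding region and works with polycomb proteins, was at 69.7 and 66.6 CPM. Its log2 fold of -0.06 had an interval of the ratio from -0.19 to 0.06, so this depth could not show a difference. E2f5, a relative of E2f4 outside the chosen members and named after its values were seen, was at 17.5 and 20.8 CPM (log2 fold 0.23, interval of the ratio 0.01 to 0.48). Summed, the 4 repressor genes went from 187.0 to 150.7 CPM, a log2 ratio of -0.31 (-0.39 to -0.23), of which E2f7 and E2f8 alone had -0.62 (-0.76 to -0.49). Without those 2 genes the sum of E2f4 and E2f6 had a log2 ratio of -0.14 (-0.23 to -0.04).

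Among the pocket protein genes, Rbl1 moved apart from Rb1 and Rbl2. Rbl1, which encodes p107 and is itself an E2F target, was at 76.6 CPM in control cells and 68.2 in treated cells (log2 fold -0.16, interval of the ratio -0.29 to -0.05). Rbl2, which encodes p130, the pocket protein of resting cells, was at 38.7 and 41.8 CPM (0.11, -0.05 to 0.27). Rb1, which encodes the retinoblastoma protein, was the lowest of the 3 at 16.9 and 19.9 CPM, on 281 and 294 reads (0.22, -0.01 to 0.47). The intervals of Rb1 and Rbl2 include 0, and only Rbl1 was below it. The 3 together went from 132.2 to 129.9 CPM, a log2 ratio of -0.03 (-0.12 to 0.06). Exons of Rb1 overlap those of Rcbtb2 and Lpar6 on the opposite strand. Exons of Rbl2 overlap those of Aktip and share 892 bases with Gm45464, also on the opposite strand. Exons of E2f8 share 610 bases with Gm2788, listed at 0.120 and 0.203 CPM, and those of E2f7 share 86 bases with 1700020G17Rik, which was not listed, both on the opposite strand. The sources used here do not say whether reads were counted by strand, so these 4 levels are uncertain to that extent. Rcbtb2 was at 16.9 and 16.5 CPM, Lpar6 at 3.07 and 2.97, Aktip at 23.0 and 25.8, and Gm45464 at 0.422 and 0.473.

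**Figure D2:**
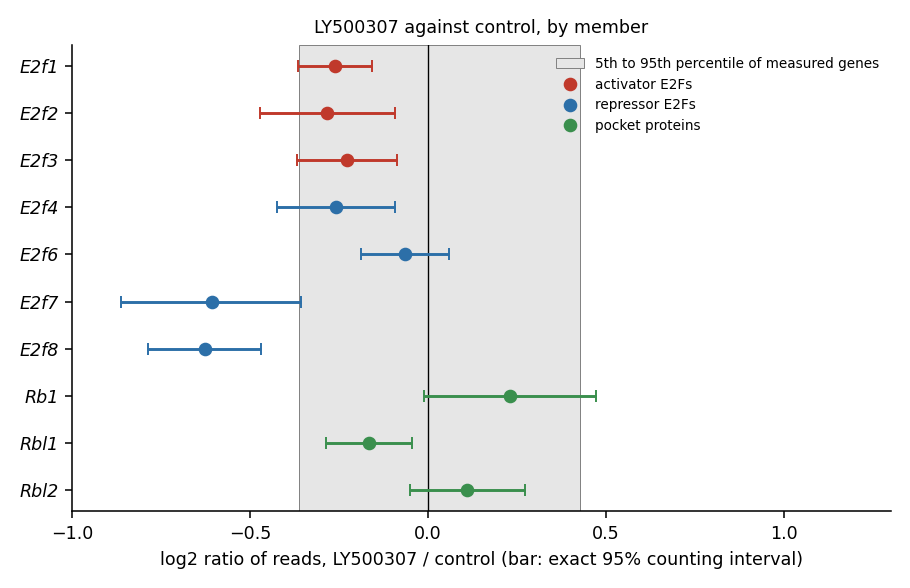
Log2 ratio of reads, LY500307 over control (x axis), for each member (y axis), with exact 95% counting intervals as bars and the 5th to 95th percentile of the log2 folds of all measured genes, -0.36 to 0.43, as a grey band. E2f7 and E2f8 lie left of the band, 4 E2F genes and Rbl1 lie inside it with intervals below 0, and the intervals of E2f6, Rb1 and Rbl2 include 0.

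Ratios between genes within a library do not depend on how the libraries were scaled, and 12 such pairs were compared. All but the dimer partners described further on were between members. The pairs were not among the planned comparisons, and some set members that were higher in treated cells against members that were lower. E2f7 and E2f8 together had 0.380 reads per activator read in control cells and 0.295 in treated cells, a log2 ratio of ratios of -0.37 (-0.52 to -0.21). Against E2f4 the same pair was lower by a log2 ratio of ratios of -0.36 (-0.58 to -0.15). E2f7 and E2f8 themselves kept nearly the same proportion, 0.394 and 0.399 reads of E2f7 per read of E2f8 (log2 0.02, -0.28 to 0.32). E2f4 did not separate from the activators (-0.00, -0.19 to 0.18), nor from E2f6 (-0.19, -0.40 to 0.02), while E2f6 was higher relative to the activators (0.19, 0.04 to 0.33).

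Pocket protein reads gained on E2F reads, from 0.344 per E2F read in control cells to 0.411 in treated cells (log2 0.26, 0.15 to 0.36). Rb1 gained on E2f1 (0.49, 0.23 to 0.75). Among the pocket proteins, Rb1 and Rbl2 both gained on Rbl1, by 0.40 (0.13 to 0.67) and 0.28 (0.07 to 0.48), and Rb1 did not separate from Rbl2 (0.12, -0.17 to 0.41). Rbl1 made up 57.9% of pocket protein reads in control cells (55.8 to 60.0) and 52.5% in treated cells (50.3 to 54.8), and these intervals did not overlap. How often pairs or shares of other genes separate in this way was not computed. For single genes, 19.2% of those measured had an interval below 0 and 17.2% above 0.

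The share of E2F reads from activators stayed close, at 51.4% in control cells (50.1 to 52.6) and 52.3% in treated cells (50.9 to 53.8), with overlapping intervals. Within the repressor side, E2f7 and E2f8 went from 19.5% (18.6 to 20.5) to 15.4% (14.4 to 16.5) of E2F reads, and E2f4 and E2f6 from 29.1% (28.0 to 30.3) to 32.2% (30.9 to 33.6). Counted per kilobase of the longest coding transcript, the activator share was 45.4% in both libraries, and that of E2f7 and E2f8 was 14.7% in control cells and 11.4% in treated cells. Shares per kilobase depend on the length chosen, and no other length was tried.

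On that scale of level per length, E2f1 was the highest member in both libraries, at 38.7 CPM per kilobase in control cells and 32.3 in treated cells. E2f6 followed at 28.8 and 27.6, then E2f4 at 21.2 and 17.7, and Rbl1 at 15.8 and 14.0. E2f8 was next in control cells at 14.6 CPM per kilobase, not separate from Rbl1 beyond counting error. In the LY500307 library E2f8 was at 9.45, between E2f3 and Rbl2 and separate from neither. E2f3 was at 11.4 and 9.76, Rbl2 at 7.86 and 8.48, and E2f2 at 6.91 and 5.67. The lowest members were E2f7 at 3.88 and 2.54 and Rb1 at 3.64 and 4.27. Rb1 was below E2f7 in control cells, where they did not separate, and 1.68-fold above it in treated cells (1.40 to 2.01). These intervals do not cover the choice of length, and the annotation used for counting is not known. All exons of E2f6 cover 5663 bases, against 2418 in the transcript used, and those of E2f7 9009, against 5473. The order of members could therefore differ with another length.

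**Figure D3:**
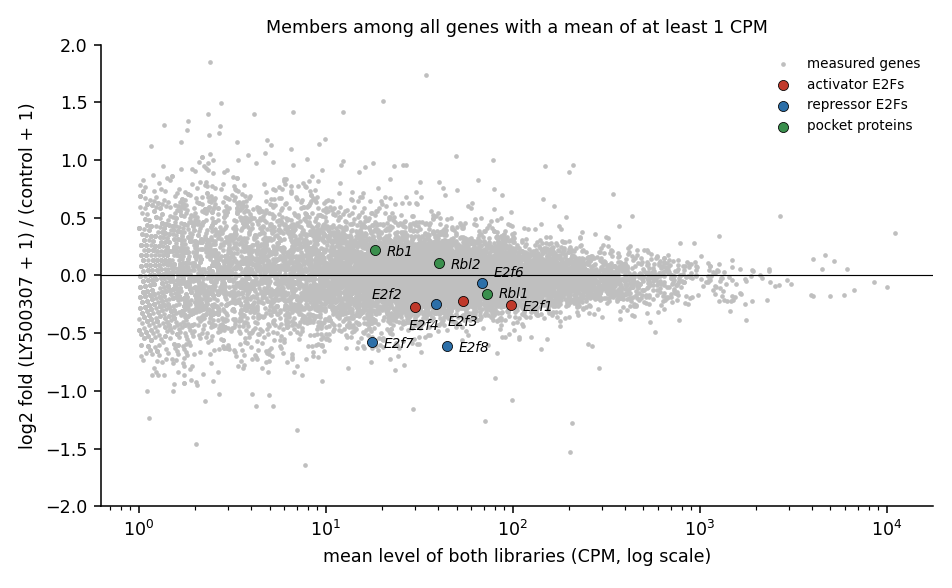
Log2 fold (y axis) against the mean level of both libraries in CPM (x axis, log scale) for the 12243 measured genes in grey, with the 10 members in the colour of their role. E2f7 and E2f8 lie at the lower edge of the genes of their level, and the other members lie inside the grey cloud.

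Sequence before the annotated starts was examined because several family genes are known E2F targets themselves. The table of RefSeq promoter windows (build GRCm38.p6, 250 bases before to 50 after a start) held 10 windows of 8 members. E2f4 and Rb1 had none. The E2F words searched were TTCCCGC or TTGGCGC or TTCGCGC or TTGCCGC, on both strands, and 9.57% of all 32851 windows hold at least 1. By gene, 20.4% of the 9017 measured genes with a window had a word in at least 1 of their windows. Windows of E2f2, E2f3, E2f7, E2f8 and Rbl1 held such a word, and those of E2f1, E2f6 and Rbl2 did not. The 5 members with a word had intervals below 0, but of the members with a window only E2f6 and Rbl2 had intervals that include 0. E2f1, without a word, also had an interval below 0, and the start of its window lies 466 bases inside the outermost start of the gene. A link between words and levels of the members was not tested. The sequences shown are 250 bases before the start for E2f7, with the most E2F words, for E2f3 and Rbl1, with a word next to the start, and for Rbl2, a pocket protein gene without one. For E2f8 and E2f2 only 30 bases around the word are shown. All run 5′ to 3′ on the strand of the gene, with E2F words in capitals.
E2f7 (chr10:110745189-110745438, plus strand): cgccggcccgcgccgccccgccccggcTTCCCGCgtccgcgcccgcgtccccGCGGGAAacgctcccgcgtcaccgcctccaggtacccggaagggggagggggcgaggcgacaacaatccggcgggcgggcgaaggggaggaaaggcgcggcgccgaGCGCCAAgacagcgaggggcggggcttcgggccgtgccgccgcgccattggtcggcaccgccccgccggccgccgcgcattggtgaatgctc
E2f8 (chr7:48881689-48881718, minus strand): agaggcgcggaTTGGCGCgcggggccccgg
E2f3 (chr13:29986064-29986313, minus strand): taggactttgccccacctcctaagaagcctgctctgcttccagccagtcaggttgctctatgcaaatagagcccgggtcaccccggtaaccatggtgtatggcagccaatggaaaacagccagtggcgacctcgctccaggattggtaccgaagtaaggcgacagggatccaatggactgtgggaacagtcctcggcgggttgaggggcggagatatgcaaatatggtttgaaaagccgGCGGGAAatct
E2f2 (chr4:136172294-136172323, plus strand): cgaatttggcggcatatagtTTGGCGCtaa
Rbl1 (chr2:157204535-157204784, minus strand): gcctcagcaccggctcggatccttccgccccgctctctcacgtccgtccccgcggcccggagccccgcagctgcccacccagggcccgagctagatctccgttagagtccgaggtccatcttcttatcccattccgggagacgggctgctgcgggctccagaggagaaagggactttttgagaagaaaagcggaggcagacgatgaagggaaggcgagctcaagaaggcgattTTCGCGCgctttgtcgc
Rbl2 (chr8:91069807-91070056, plus strand): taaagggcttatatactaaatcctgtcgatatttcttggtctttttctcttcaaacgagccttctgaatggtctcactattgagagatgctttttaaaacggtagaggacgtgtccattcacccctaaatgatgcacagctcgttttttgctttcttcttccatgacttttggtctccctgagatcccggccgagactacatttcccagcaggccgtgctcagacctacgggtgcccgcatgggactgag

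In E2f7 the 3 words start 223, 198 and 92 bases before the annotated start, the last 2 on the opposite strand. The single word of Rbl1 starts 17 bases before the start. E2f3 has 1 word 11 bases before the start, on the opposite strand, and 1 at position 19 after it, which is not shown. That of E2f2 lies at position 41 after the start. In E2f8 the word starts 111 bases before a start that lies 477 bases inside the outermost one, and it overlaps a CCAAT box on the opposite strand. CCAAT boxes, bound by the factor NF-Y, were in 37.4% of all windows and in windows of 4 members, E2f2, E2f3, E2f7 and E2f8. CHR elements (TTTGAA or TTCGAA), where the MuvB complex can bind, were in 19.2% of all windows and in windows of E2f2, E2f3, E2f8 and Rbl2. These shares are of windows, and E2f2 and E2f3 had more than 1 window each. The CHR element of E2f2 was not in the window with its E2F word. It lay in the other window, whose start is 8508 bases inside the outermost start. A match is a run of letters and was not shown to be a bound site.

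**Figure D4:**
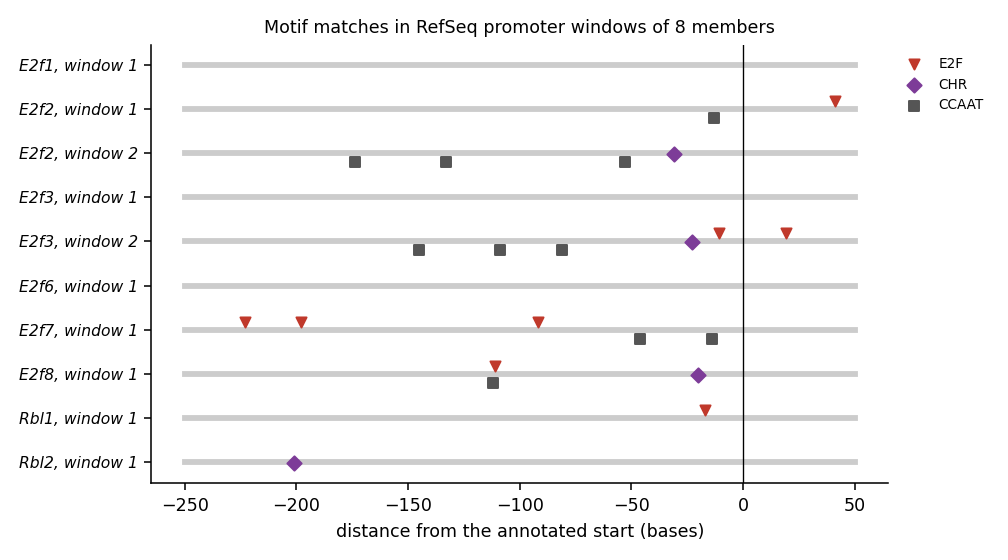
Position of matches to E2F words, CHR elements and CCAAT boxes (markers) in the RefSeq promoter windows of 8 members, by distance in bases from the annotated start (x axis, vertical line at 0). E2f7 has 3 E2F words, E2f3 has 2, and E2f1, E2f6 and Rbl2 have none in these windows.

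Across genes, the E2F words were counted in windows of 9017 measured genes. The intervals of these shares are exact binomial ones over genes, which are not independent. At least 1 window held a word in 26.0% of 1829 genes with an interval below 0 (24.0 to 28.0), 19.7% of 5557 genes whose interval includes 0 (18.7 to 20.8) and 16.6% of 1631 genes above 0 (14.8 to 18.5). The mean GC content of the windows was 62.5%, 61.0% and 61.2% in these groups, and the median level was 72.8, 29.4 and 42.0 CPM. The part of level and base composition in these shares was not tested.

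The partners that E2Fs other than E2F7 and E2F8 need for binding DNA differed from each other. Tfdp1, which encodes the main dimer partner DP1, was at 150.6 CPM in control cells and 128.8 in treated cells (log2 fold -0.22, interval of the ratio -0.31 to -0.14). Tfdp2, which encodes DP2, was at 29.8 and 36.0 CPM (0.27, 0.10 to 0.45), so Tfdp2 gained on Tfdp1 by a log2 ratio of ratios of 0.50 (0.30 to 0.70). The MuvB core joins p130 or p107 and E2F4 in the DREAM repressor, and later MYBL2 and FOXM1. Genes of the core and of its partners MYBL2 and FOXM1 stayed near the control. Of 7 measured, the median was -0.10, and intervals lay below 0 for 2 (background 19.2%) and above 0 for 0 (17.2%). The 2 were the core gene Rbbp4 and the partner gene Foxm1, named after their values were seen, both at -0.10. Lin9 and Mybl2 were lowest at -0.13 and -0.10, both with intervals that include 0, and Lin37 and Lin54 highest at 0.23 and 0.08, likewise.

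Upstream of the pocket proteins, the genes of D cyclins and of Cdkn1a were higher. In the list of D and E cyclins, their kinases and Cdc25a, intervals lay above 0 for 3 of 9, all D cyclins, and below 0 for 2, against 17.2% and 19.2% of all measured genes, so the lower side was near the background. Ccnd1, a D cyclin whose kinases phosphorylate the pocket proteins, was at 150.0 and 202.4 CPM (log2 fold 0.43), and Ccnd3 at 285.3 and 357.2 (0.32). The phosphatase gene Cdc25a and the kinase gene Cdk2 were at -0.24 and -0.20. Of 4 measured inhibitor genes, 2 had intervals above 0 (background 17.2%) and 2 below (19.2%). Cdkn1a, which encodes the kinase inhibitor p21, was at 100.6 and 195.1 CPM (0.95), Cdkn2d at 0.15, Cdkn1b at -0.18 and Cdkn2c at -0.25. The part of these genes in the levels of the E2F genes was not tested.

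Genes of proteins that work with RB and with E2F6 had medians near 0. Of 12 RB corepressors, intervals lay below 0 for 5 (background 19.2%) and above 0 for 2, a share close to the 17.2% of all measured genes, with a median of 0.03. Sin3a, a scaffold of histone deacetylases, was lowest at -0.36, the only one of the 12 past a log2 fold of 0.32 in size, and the maintenance methyltransferase gene Dnmt1 next at -0.16. The other 3 below 0, named after their values were seen, were Rbbp7 (-0.16), Smarca4 (-0.10) and Hdac2 (-0.08). Rbbp8 and Sin3b were highest at 0.17 and 0.14, the 2 above 0. The catalytic subunits of the phosphatases that act on RB had a median of -0.02, with Ppp1cc at -0.17 (interval below 0), Ppp2ca and Ppp1cb at -0.02, Ppp1ca at 0.02 and Ppp2cb at 0.03. The 12 polycomb partners of E2F6 lay between -0.11 and 0.10, with a median of -0.06. Intervals lay below 0 for 1 (Ehmt2, -0.07, named after its values were seen) and above 0 for 0, against 19.2% and 17.2% of all measured genes. Rnf2 and Ehmt1 were at -0.11 and -0.08, and Yaf2 and Rybp at 0.10 and 0.02, all 4 with intervals that include 0. Of 9 germline genes known to be silenced through E2F6, 2 were listed and neither reached 1 CPM. Smc1b had 3 reads and 0 reads, and Ddx4 had 1 and 2. In the list of E2F protein turnover, 3 of 8 had intervals below 0 (background 19.2%) and 1 above (17.2%). Huwe1 (-0.08), named after its values were seen, was among the 3. Ccnf, whose product targets E2F proteins, and Fzr1, an activator of the anaphase-promoting complex, were lowest at -0.15 each, and Mdm2, a ligase and p53 target, highest at 0.29, followed by Cdc20 at 0.01 with an interval that includes 0.

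Known targets of the E2Fs at the start of S phase were mostly lower in treated cells. Of 48 measured, 45 had a negative log2 fold, intervals lay below 0 for 34 and above 0 for 1, and the median was -0.18. Of all 12243 measured genes, 6332 had a negative log2 fold, 19.2% had an interval below 0, and the median was -0.01. Abundant genes have narrower counting intervals, and the 37 genes of this list with a promoter window had a median level of 117.7 CPM, against 37.4 for all measured genes with one. Ung, a DNA repair glycosylase, was at 29.2 and 18.9 CPM (-0.60), about the log2 fold of E2f7 and E2f8, and the helicase gene Mcm4 at 203.5 and 154.9 CPM (-0.39). Brca1, a recombination repair gene, the only gene above 0 in this list, was at 172.6 and 203.1 CPM (0.23), and Gins2 at 20.6 and 23.2 (0.16, with an interval that includes 0). A log2 fold of -0.32 or lower was reached by 6 of the 48, against 6.59% of all measured genes. An E2F word was present for 26 of the 37 genes of this list with a window, or 70.3% (53.0 to 84.1), against 20.4% of measured genes. The median log2 fold was -0.17 for genes with a word and -0.23 for the 11 without one. The list holds genes that mark S phase cells, and whether the share of such cells differed between the cultures was not measured.

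Targets of the DREAM complex at mitosis were also mostly lower. Of 28 measured, 26 had a negative log2 fold, and the median was -0.14. Intervals lay below 0 for 22 (background 19.2%) and above 0 for 0 (17.2%). The difference between these 2 target lists was not tested, and the median level was likewise high, 117.2 CPM over the 24 genes with a window. The spindle gene Aspm was lowest at 114.0 and 85.3 CPM (-0.41), followed by the topoisomerase gene Top2a (-0.29), while Cdc20 and Nek2 were both at 0.01 with intervals that include 0. Of 10 measured genes of cell death known as E2F1 targets, 4 had intervals above 0 (background 17.2%), 0 had intervals below 0 and 6 had intervals that include 0, and the median was 0.12. Trp53inp1 was at 32.2 and 67.2 CPM (1.04) and Bbc3, a BH3-only death gene, at 8.32 and 11.4 (0.41), and both are p53 targets as well. The other 2 above 0, named after their values were seen, were Casp9 (0.22) and Apaf1 (0.13). Bcl2l11 and Siva1 were at -0.29 and -0.02, with intervals that include 0.

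**Figure D5:**
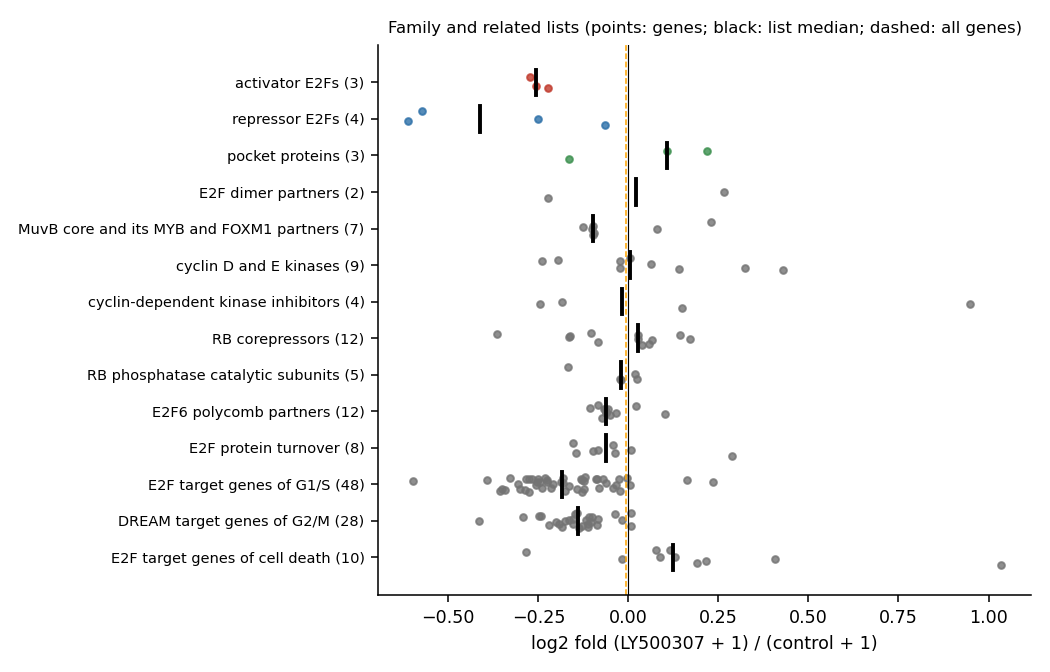
Log2 fold (x axis) of the measured genes of each role and related list (y axis, number of genes in parentheses), with the list median as a black bar and the median of all measured genes as a dashed line. The medians of the activators, the repressors and both cell cycle target lists lie left of the dashed line, and those of the pocket proteins and the cell death targets lie right of it.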

How the data were processed

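RNA-seq libraries of 2 groups of B16 cells, 1 per group, were compared. Per the submitters' processing notes, the tools were CASAVA 1.8 and Bowtie2 and the build mm9. Nothing used here names the counting tool, annotation or scaling. The deposited table holds a signal for each gene. From the values, these are reads times 1 factor per library, not divided by length: values rise in steps of 0.944 (control) and 1.06 (LY500307), and all gave whole reads within 1% of a read (100% of values in each library). The ratio of the steps, 1.12, equals the TMM ratio that edgeR 4.0.16 gave on these reads. Values were divided by the mean deposited total to give CPM, and rows with the same symbol were added up. No test between groups was possible. Symbols came from a table of gene names for 18177 of 18224 identifiers. Lengths, overlaps and copies were read from GENCODE M21, another build than that of the counts, so no positions of the counted genes are given. The coordinates printed are those of the RefSeq promoter windows on GRCm38.p6. No member had a near-identical copy (blastn 2.17.0, at 95% identity, 100 or more aligned bases and 50% of the shorter of both transcripts).

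The members and the lists were chosen with earlier results of these data known. Named genes were all members, the 2 highest and 2 lowest measured genes of each related list, all genes of lists of up to 5, Cdkn1a and Ccnd1. Alternatives changed the pseudocount, minimum, scaling, sums, length scale and interval. Recovery of reads and intervals were tested on simulated data. Software was R 4.3.3 and Python 3.11.15 with scipy 1.17.1, numpy 2.4.6, matplotlib 3.10.9 and pandas 2.3.3.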

Additional observations from a re-analysis of the deposited data

How the results depend on the processing

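Of 107 values recomputed under alternatives, 103 stayed within the counting interval or count limit of the reported value, 4 moved beyond it and no value whose interval excludes 0 turned its sign. Some of the 103 could not have moved. No member had a near-identical copy to add, every member lay above each minimum tried, and TMM gave the deposited scaling. The pocket protein value, whose interval includes 0, was -0.03 for summed reads and 0.05 as the mean of the members. Leaving E2f7 and E2f8 out of the repressor sum, chosen after the data were seen, gave a log2 ratio of -0.14. Per kilobase of the longest coding transcript, the only length tried, the activator share was 45.4% in both libraries. With own library totals, a shift of 0.02 on the log2 scale, 1 member, Rb1, had a counting interval above 0. Median-of-ratios scaling shifted folds by -0.000596 and TMM by 4.2e-08. With a 99% interval, also chosen after the data were seen, the counts stayed at 7 members below 0 and 0 above. Without a group of replicates no library could be left out. No paired analysis was possible because each group had 1 library. Depth limits the least abundant members, Rb1 and E2f7, on 206 to 352 reads.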
